A study of Mus musculus with 16 samples.

Results

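The genes described here are 44 cell cycle and mitosis genes, followed through nuclei sorted from the muscle wall of the mouse colon. They were named as a list and matched by gene symbol to the 51912 genes of the count table, in which all 44 were found. The list holds Mki67 and the chromosome proteins Top2a, Smc2 and Smc4. It also holds Cdk1 with cyclins A, B and E and E2f1, the mitotic kinases and checkpoint genes, and the kinetochore and spindle genes. The cytokinesis genes, the MCM replicative helicase, enzymes of DNA synthesis, Brca1 and Brca2 complete it.

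The nuclei came from C57BL/6 mice kept under specific pathogen-free conditions, all of which had received AAV9-CaMKII-EGFPKASH, a virus that puts a green fluorescent protein on the nuclear envelope under a neuronal promoter, 5 weeks before isolation. EGFP-positive nuclei were collected as neuronal and EGFP-negative nuclei as non-neuronal, so the second population is set only by the lack of EGFP. Mice received 3-methylcholanthrene, an agonist of the aryl hydrocarbon receptor (AhR), or its corn oil vehicle 14 h before isolation. The 4 groups, neuronal or non-neuronal nuclei after corn oil or agonist, hold 4 libraries each. The labels give neither the dose nor whether the libraries of a group came from separate mice, so p-values measure only the spread between these libraries, which may be technical.

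A dividing cell first copies its DNA, for which the MCM helicase opens the double helix and enzymes such as ribonucleotide reductase and thymidylate synthase supply nucleotides. It then enters mitosis under cyclin-dependent kinase 1, attaches its chromosomes to the spindle through kinetochores and splits in cytokinesis. Genes of the first step are typical targets of E2F factors, while genes of the later steps are typically held down in resting cells by the DREAM complex through a promoter element called CHR, often beside CCAAT boxes bound by NF-Y. Neurons of the adult gut are regarded as postmitotic, whereas the epithelial crypt is one of the most actively dividing compartments of the body.

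Promoters of 7 members are shown because they carry these elements differently in genes that differed, or did not pass the test, between the populations. Each run is the 150 bases before the RefSeq start of transcription (GRCm38.p6), 5′ to 3′ on the gene's strand, and capitals mark CHR letters (TTTGAA or TTCGAA), E2F letters (TTGGCGC or TTCCCGC) and CCAAT, each on either strand. The stretches lie at chr7:135716380-135716529 (minus strand, Mki67), chr11:99024190-99024339 (minus, Top2a), chr19:37376232-37376381 (plus, Kif11), chr1:128359706-128359855 (minus, Mcm6), chrX:93632156-93632305 (minus, Pola1), chr7:102441545-102441694 (plus, Rrm1) and chr5:30073626-30073775 (minus, Tyms).
Mki67: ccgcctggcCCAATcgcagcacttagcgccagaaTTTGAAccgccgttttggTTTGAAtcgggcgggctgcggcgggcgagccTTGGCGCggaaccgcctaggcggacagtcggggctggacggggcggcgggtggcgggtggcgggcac
Top2a: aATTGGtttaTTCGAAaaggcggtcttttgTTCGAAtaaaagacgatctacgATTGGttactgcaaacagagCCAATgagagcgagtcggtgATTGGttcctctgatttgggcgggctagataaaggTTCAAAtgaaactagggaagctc
Kif11: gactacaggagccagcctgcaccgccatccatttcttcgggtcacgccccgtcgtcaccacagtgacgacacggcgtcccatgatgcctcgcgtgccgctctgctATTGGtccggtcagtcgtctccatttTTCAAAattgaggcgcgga
Mcm6: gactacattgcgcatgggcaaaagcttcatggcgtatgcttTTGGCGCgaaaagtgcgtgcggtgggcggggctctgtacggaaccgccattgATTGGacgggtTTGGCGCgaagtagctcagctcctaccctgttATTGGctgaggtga
Pola1: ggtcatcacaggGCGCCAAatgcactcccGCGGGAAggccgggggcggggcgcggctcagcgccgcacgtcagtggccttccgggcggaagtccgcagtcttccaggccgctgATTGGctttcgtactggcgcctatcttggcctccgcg
Rrm1: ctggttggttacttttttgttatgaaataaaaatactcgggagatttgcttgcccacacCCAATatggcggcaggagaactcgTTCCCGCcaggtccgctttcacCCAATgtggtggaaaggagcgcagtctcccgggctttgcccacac
Tyms: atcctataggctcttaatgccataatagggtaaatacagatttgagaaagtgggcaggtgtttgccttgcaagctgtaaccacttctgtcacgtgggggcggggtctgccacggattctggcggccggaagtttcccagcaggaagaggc
In these stretches Mki67 held CHR letters 2 times, with E2F letters and CCAAT, and Top2a held CHR letters 3 times and CCAAT 4 times. Kif11 held CHR letters beginning 19 bases before the start and CCAAT. Mcm6 and Pola1 each held E2F letters 2 times and no CHR letters, Rrm1 held E2F letters once, and none of the 3 kinds of letters was in the stretch of Tyms, which says only that these letters are not in this window.

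Non-neuronal libraries differed among themselves before any comparison. Total expected counts ran from 2663738 to 4902303 per library. Mitochondrially encoded genes made up 42.8%, 33.3%, 21.8% and 10.3% of non-neuronal agonist libraries 1 to 4, between 11.2% and 26.3% in the non-neuronal corn oil libraries and between 1.77% and 6.11% in the 8 neuronal libraries. Summed over 15 neuronal marker genes, levels in CPM (counts scaled to the size of the library) were 4922 to 6710 in the neuronal and 82.2 to 620 in the non-neuronal libraries. Summed over 13 genes of mature epithelium they were 5.64 to 127 in the neuronal and 1198 to 11725 in the non-neuronal libraries, so epithelial RNA was in every non-neuronal library of this muscle preparation.

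Summed over the 44 genes, levels in CPM of the plain library size were 307, 386, 358 and 350 in neuronal corn oil libraries 1 to 4 and 307, 359, 377 and 418 in the neuronal agonist libraries. They were 2291, 3211, 1957 and 849 in non-neuronal corn oil libraries 1 to 4 and 350, 908, 421 and 2092 in the non-neuronal agonist libraries. The neuronal libraries thus stood close together, while the non-neuronal corn oil libraries all lay above them, library 4 the lowest. In the non-neuronal agonist group, libraries 1 and 3 lay in or next to the neuronal range and library 4 far above it on this scale. With TMM scaling, which all single-gene levels below use and which was added here after the data were seen, the 4 agonist libraries stood at 639, 1437, 514 and 2008 CPM and the 8 neuronal libraries between 237 and 338, so all 4 lay above the neuronal range. In bulk nuclei, fewer cycling nuclei and less RNA per cycling nucleus cannot be told apart.

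Sums of marker genes of other cells were set beside these levels. The 12 genes of crypt stem and transit cells summed to 567, 560, 594 and 498 CPM in non-neuronal corn oil libraries 1 to 4 and to 137, 273, 256 and 863 in the agonist libraries, where library 4 was the highest. In the neuronal libraries they summed to 58.0 to 164, a range that holds agonist library 1. Library 4 was also the highest agonist library for lymphatic endothelial (1633), mesothelial (221) and interstitial cell of Cajal genes (439). It was not for glial, fibroblast, blood endothelial, pericyte or macrophage genes. The mature epithelial genes summed to 7125, 5932, 11725 and 1844 in the corn oil and 4668, 2493, 1198 and 4361 in the agonist libraries. The 12 lymphocyte and plasma cell genes summed to 162, 234, 207 and 117 in the corn oil and 122, 435, 53.9 and 111 in the agonist libraries. The 11 smooth muscle genes, the tissue the preparation is named for, summed to 6290, 5614, 3888 and 16446 after corn oil and to 2013, 3575, 7707 and 6325 after agonist. After corn oil they were highest in library 4, with the lowest cell cycle sum on either scale. After agonist they were lowest in library 1, which had the lowest cell cycle sum on the plain library size. They were highest in library 3 (7707), which had the lowest cell cycle sum with TMM scaling (514, against 639 in library 1), so the order depends on the scale. The part of any of these cells in the results below was not tested.

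**Figure D1:**
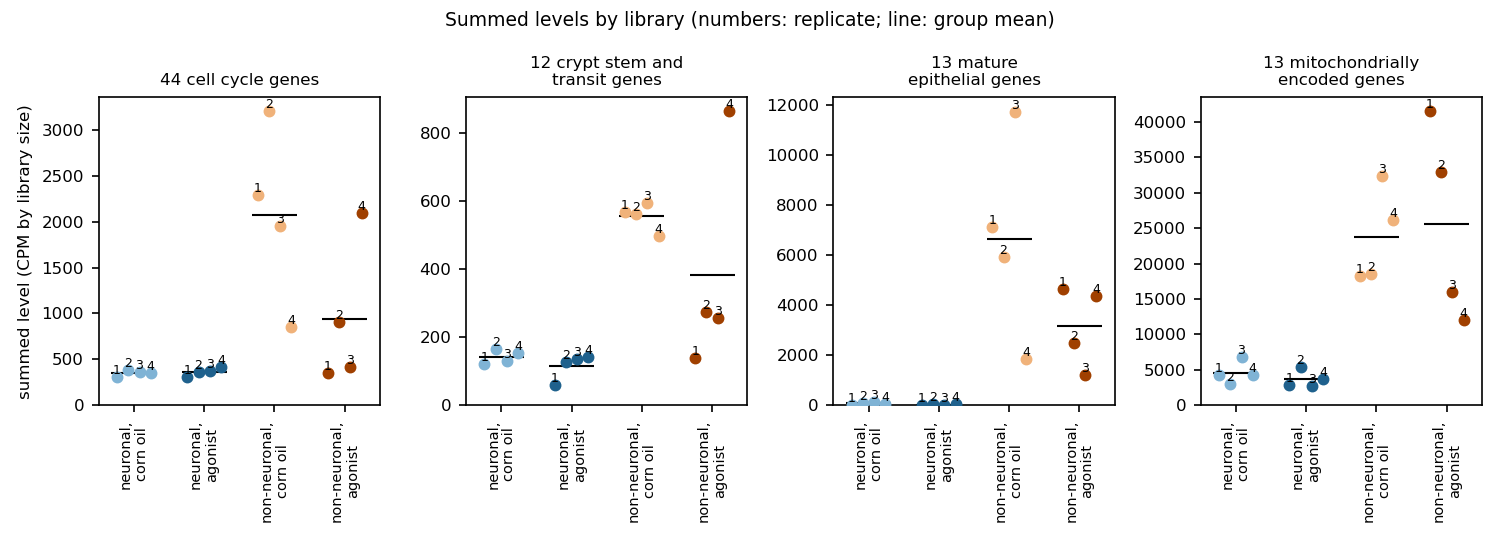
Summed level per library (CPM of the library, without TMM scaling) of the 44 cell cycle genes, 12 crypt genes, 13 mature epithelial genes and 13 mitochondrially encoded genes; points are libraries numbered by replicate and lines are group means. The cell cycle sum stayed between 307 and 418 in the 8 neuronal libraries and ran from 350 to 3211 in the non-neuronal ones.

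Different genes made up the sums in the 2 populations. Mki67, the gene of the proliferation marker Ki-67 that coats mitotic chromosomes, gave 27.4% of all counts on the 44 genes in the 8 non-neuronal libraries, with Smc4 (6.38%), Top2a (5.67%), Knl1 (5.57%) and Pola1 (4.46%) next in these pooled counts. Their order differed between treatments, with Knl1 (1741 counts), Top2a (1606) and Smc4 (1358) after Mki67 (8251) in the corn oil libraries, and Smc4 (1411), Smc2 (932) and Top2a (858) after Mki67 (3654) in the agonist libraries. In the 8 neuronal libraries Tyms (13.4%), Brca2 (12.6%), Pola1 (11.7%), Smc2 (6.78%) and Rrm1 (5.33%) led, and Mki67 took between 0 and 1.58% of them in a library. Per kilobase of annotated exon, with levels now scaled by the TMM method, the highest mean over the 8 neuronal libraries was that of Tyms, thymidylate synthase (6.69 CPM per kb). Pola1, the catalytic subunit of the polymerase that primes replication (3.99), the condensin gene Smc2 (3.67), the checkpoint gene Bub1b (3.56) and the helicase gene Mcm7 (3.20) followed. The last 2 rested on neuronal agonist library 1, without which Bub1b stood at 2.39 and Mcm7 at 1.60, below Ccna2, Smc4, Ccne2 and Brca2 (2.94 to 3.02), a value added after the data were seen. In non-neuronal libraries Mki67 led at 45.4 CPM per kb, ahead of Smc4 at 20.3 and Pcna at 11.8.

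At the low end, 14 members had 3 or more counts in all 8 neuronal libraries, 10 had them in 1 or 2 and 3 members, Kif4, Mcm3 and Rrm2, in none. Rrm2, the S-phase subunit of ribonucleotide reductase, had 0 counts in every neuronal library, which at 3 counts allows a level of up to 0.648 to 0.820 CPM in a library. Its partner Rrm1 stood at 20.3 ± 2.61 CPM (SD, n = 4) in the neuronal corn oil libraries. Kif4, a chromosome-bound motor of the spindle midzone, had 1 count in all 8 neuronal libraries together and Cdk1, the kinase that drives entry into mitosis, had 6, all in corn oil library 1.

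**Figure D2:**
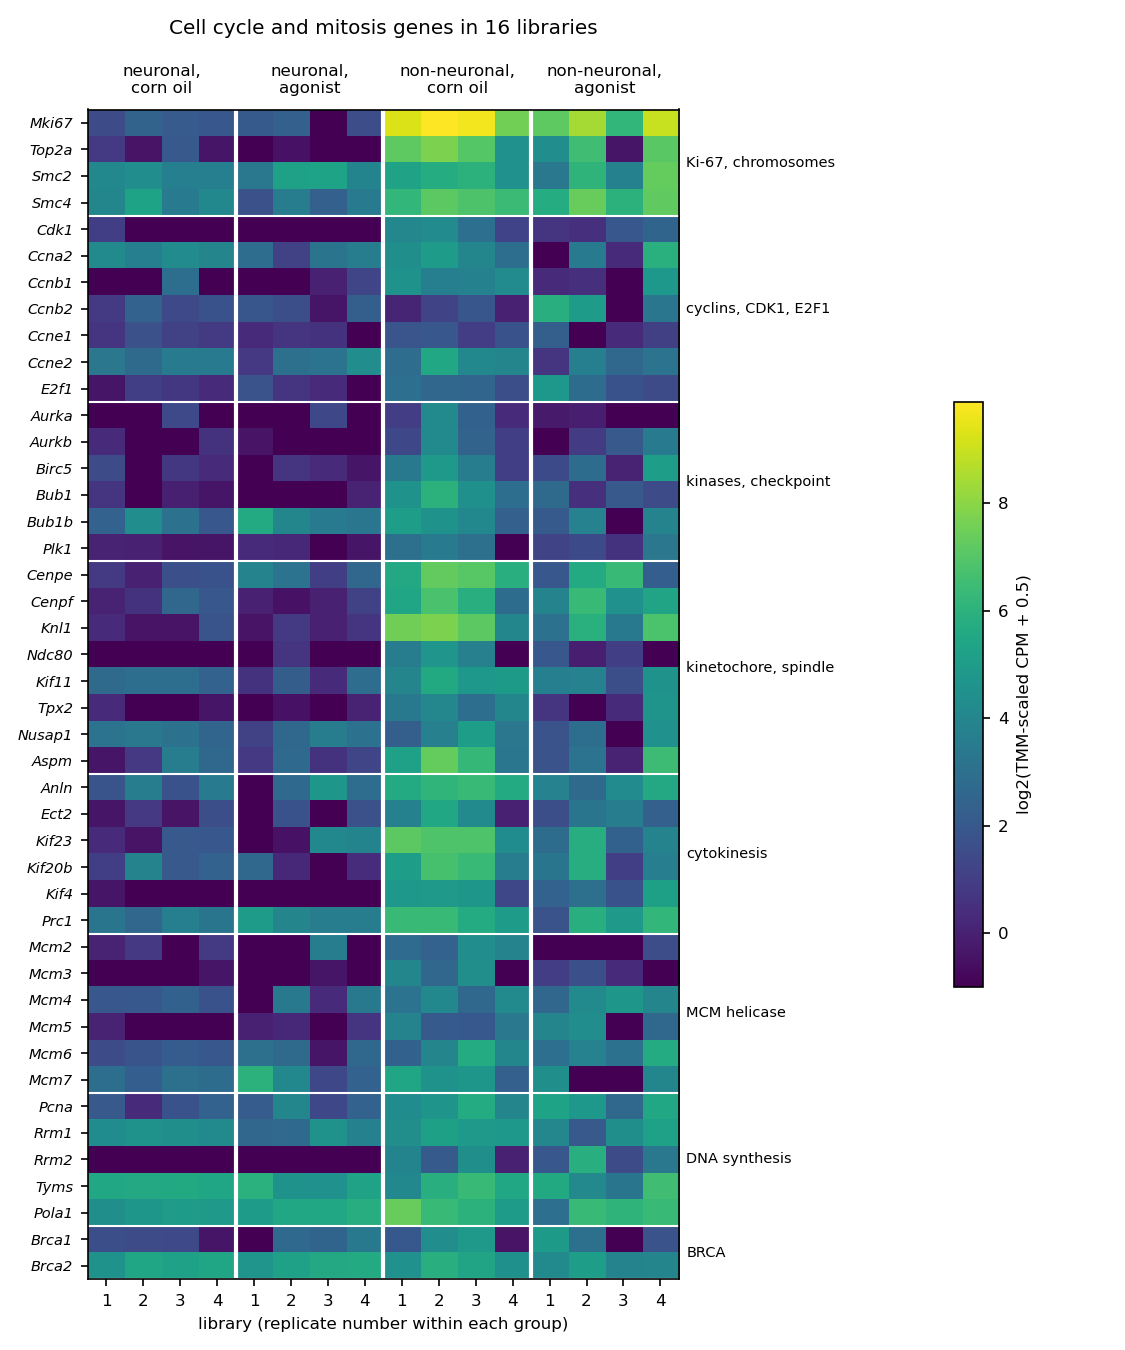
Level of each of the 44 genes (rows, grouped by role) in each of the 16 libraries (columns, by group and replicate), as log2 of TMM-scaled CPM plus 0.5. Mki67 is bright in the non-neuronal and dark in the neuronal libraries. Knl1 is dark in the neuronal and brighter in the non-neuronal libraries, least so in agonist libraries 1 and 3 (8.19 and 10.1 CPM). Top2a is also brighter in the non-neuronal libraries, except in agonist library 3 (0.258), while Tyms and Brca2 are bright in both populations.

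The first comparison asked which genes differ between neuronal and non-neuronal nuclei after corn oil. Of the 44 genes, 31 had enough counts to be tested, 20 were lower in neuronal nuclei, 0 were higher and 11 were not called (edgeR quasi-likelihood test, Benjamini-Hochberg adjusted p under 0.05). Over all 15285 genes tested, 13.5% were lower, 11.8% higher and 25.4% called either way. The median log2 fold change of the 31 genes was −2.70, against −0.11 over all genes tested. Since a gene that is low in neurons passed the count filter only through the non-neuronal libraries, neither that count nor that median speaks for all 44. Over all 44 genes, tested or not, every neuronal library lay below every non-neuronal library for 25 and above for 0. For the 31 tested these numbers were 19 and 0, against 15.5% and 15.1% of all genes tested. The estimates of 30 of the 31 were negative, as were 53.8% over all genes tested, and 24 had an unadjusted p under 0.05 (35.8%).

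All 4 members tied to chromosome structure were lower in neuronal nuclei. Mki67 had 2.32, 5.06, 3.81 and 3.35 CPM in neuronal corn oil libraries 1 to 4 and 638, 945, 818 and 188 in the non-neuronal ones, where library 4 was the lowest. Its log2 fold change was −7.37 (SE 0.52, edgeR adjusted p = 2.47e-06), the smallest p of the 44 genes. Top2a, the topoisomerase that untangles replicated chromosomes, was at 1.29, 0.253, 3.57 and 0.258 in neuronal and 147, 215, 128 and 22.5 in non-neuronal libraries (−6.43, SE 0.85, edgeR adjusted p = 0.000139). Every non-neuronal library thus lay above every neuronal one for both genes, with library 4 the lowest of the non-neuronal ones.

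The condensin genes Smc2 and Smc4, whose products compact chromosomes, differed less. Smc4 was at 15.2, 39.5, 10.7 and 16.5 in neuronal against 74.4, 141, 113 and 86.3 in non-neuronal libraries (−2.26, SE 0.43, adjusted p = 0.00178). Smc2 was at 16.3, 19.99, 12.4 and 12.4 against 38.5, 52.2, 63.7 and 22 (−1.44, SE 0.45, adjusted p = 0.0298). The groups did not overlap for either gene. The Smc2 call was lost when any 1 neuronal library or non-neuronal library 2 or 3 was left out (edgeR adjusted p from 0.0521 to 0.0982).

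Among the 7 genes of cyclins, Cdk1 and E2f1, 3 were tested and none passed (0 called). Ccnb1, the cyclin that activates Cdk1 for mitosis, had 0, 0, 7.15 and 0 CPM in neuronal libraries 1 to 4 and 23.0, 12.6, 13.3 and 18.4 in the non-neuronal ones. The groups did not overlap, and its log2 fold change of −3.11 (SE 1.3) had an edgeR adjusted p of 0.102, or −8.88 and 0.00159 without neuronal library 3. Cdk1 itself was too low to be tested, at 1.55 in neuronal library 1 and 0 in the others against 15.8, 18.5, 7.37 and 1.79, groups that did not overlap. Ccna2, the S-phase and G2 cyclin, was at 18.1, 12.7, 18.3 and 15.2 in neuronal against 21.0, 31.1, 15.6 and 7.15 in non-neuronal libraries (−0.13, SE 0.55), with overlapping groups. Exons of Ccna2 overlap those of Exosc9 on the other strand and those of Ccne2 (−1.09, SE 0.63) overlap Ints8, and without a statement of strand their reads cannot be told apart. Untested Ccnb2 and Ccne1 had 44 and 27 counts in neuronal against 20 and 36 in non-neuronal libraries, and E2f1, a transcription factor of S-phase entry, 15 against 68 with no overlap.

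Of the 6 mitotic kinase and checkpoint genes, 2 were tested and 1, Bub1, was lower in neurons. Bub1, a kinase that halts cells with unattached chromosomes, was at 1.03, 0, 0.477 and 0.258 in neuronal and 23.6, 63.7, 21.5 and 7.15 in non-neuronal libraries (−5.85, SE 0.98, edgeR adjusted p = 0.000726). Its relative Bub1b was at 4.9, 19.5, 8.1 and 3.35 against 32.7, 22.9, 16.5 and 4.59 (−1.01, SE 0.73, adjusted p = 0.355), with overlapping groups. The other four stayed untested. Summed counts over the 4 neuronal and 4 non-neuronal libraries were 9 and 72 for Aurka, 7 and 79 for Aurkb, 17 and 158 for Birc5, and 6 and 80 for Plk1. Those of Aurkb, the kinase that corrects chromosome attachment, did not overlap by library, while the groups of Aurka, Birc5 and Plk1 did.

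Of the 8 kinetochore and spindle genes, 7 were tested and 6 were lower in neurons. Knl1, the scaffold on which the checkpoint assembles, was at 0.774, 0.253, 0.238 and 3.09 in neuronal and 183, 215, 139 and 15.6 in non-neuronal libraries (−6.87, SE 0.91, edgeR adjusted p = 0.000145). Cenpe, a motor that carries chromosomes to the spindle equator, was at 1.29, 0.506, 2.62 and 2.84 against 47.0, 155, 132 and 56.4 (−5.63, SE 0.62, adjusted p = 3.99e-05). For both genes the lowest non-neuronal library was well above the highest neuronal one. Cenpf, a kinetochore protein of G2 and mitosis, was at 0.516, 1.01, 5.48 and 3.35 against 43.5, 107, 55.7 and 6.64 (−4.25, SE 0.87, adjusted p = 0.00275). Tpx2, which targets Aurora A to the spindle, was at 0.774, 0, 0 and 0.258 against 10.2, 15.9, 7.08 and 15.6 (−5.33, SE 1.09, adjusted p = 0.00273).

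The spindle motor Kif11 was lower by a smaller amount (−2.16, SE 0.54, adjusted p = 0.00923), and Aspm, a spindle pole gene, by −3.77 (SE 0.97, adjusted p = 0.0114) with overlapping groups. Kif11 remained at 6.19, 7.09, 7.15 and 4.9 in the neuronal libraries, with 14.9, 47.7, 27.1 and 30.4 in the non-neuronal ones. Nusap1, a microtubule-bundling gene whose exons overlap Oip5 on the other strand, did not pass (−0.83, SE 0.69, adjusted p = 0.43). Ndc80, which binds kinetochores to microtubules, had 0 counts in the neuronal and 151 in the non-neuronal libraries, at least 59.6-fold higher in non-neuronal nuclei against a floor of 3 counts over the group, although non-neuronal library 4 also had 0.

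All 5 tested genes of the 6 that act in cytokinesis were lower in neurons. Kif23, a motor of the central spindle, was at 0.774, 0.253, 3.57 and 3.35 in neuronal and 142, 117, 117 and 19.1 in non-neuronal libraries (−5.51, SE 0.78, edgeR adjusted p = 0.000224). Anln, a scaffold of the contractile ring, was at 3.10, 11.6, 2.86 and 11.1 against 50.5, 70.0, 79.6 and 49.3 (−3.03, SE 0.54, adjusted p = 0.00114). Prc1, which bundles the midzone microtubules, was at 8.78, 5.57, 12.6 and 9.02 against 82.0, 81.8, 50.7 and 30.6 (−2.67, SE 0.47, adjusted p = 0.000981), and its exons overlap Rccd1. These 3 genes separated the populations in every library. Kif20b (−3.16, SE 0.76, adjusted p = 0.00757) and Ect2 (−4.0, SE 1.16, adjusted p = 0.0210), the exchange factor that sets the division plane, passed with overlapping groups. The Ect2 call was lost without neuronal library 1, 2 or 3 or non-neuronal library 2 (edgeR adjusted p from 0.0564 to 0.0757). Kif4, not tested here, had 1 count against 272 (322-fold, 95% exact interval 57.3 to 12758, counting error only), with the reservation that its exons overlap Pdzd11.

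Of the 6 MCM genes 4 were tested and 2 were lower, and of the 5 DNA synthesis genes 4 were tested and 2 were lower. Mcm2 was at 0.516, 1.27, 0 and 1.29 in neuronal and 6.42, 4.81, 19.8 and 14.3 in non-neuronal libraries (−3.74, SE 1.01, edgeR adjusted p = 0.0148, or 0.0604 without neuronal library 1). Mcm6 was at 2.32, 3.04, 4.05 and 3.35 against 4.67, 15.2, 50.7 and 15.6 (−2.64, SE 0.75, adjusted p = 0.0198). Neither gene's groups overlapped. The Mcm6 call was lost without neuronal library 1, 2 or 4 or non-neuronal library 3, with adjusted p from 0.0557 to 0.124 by edgeR, and the log2 fold change was −1.75 without the last. Mcm4 (−1.66, adjusted p = 0.104) and Mcm7 (−1.83, adjusted p = 0.0592), whose exons overlap Ap4m1 and Cops6, did not pass. Untested Mcm3 had 1 count in neuronal and 137 in non-neuronal libraries (162-fold, interval 28.6 to 6449), and Mcm5 had 2 and 108 (63.9-fold, interval 17.3 to 534).

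Pcna, the sliding clamp of replication, was at 3.61, 0.759, 2.86 and 4.9 in neuronal and 19.3, 24.1, 51.0 and 14.8 in non-neuronal libraries (−3.05, SE 0.70, edgeR adjusted p = 0.00539), without overlap. Pola1 was at 21.2, 26.8, 30.5 and 28.6 against 162, 82.5, 64.0 and 30.6 (−1.57, SE 0.45, adjusted p = 0.0203). Non-neuronal library 4 stood just above the highest neuronal one, and the Pola1 call was lost without neuronal library 1, 2 or 4 or non-neuronal library 1 (adjusted p from 0.0512 to 0.0883 by edgeR, and a log2 fold change of −1.04 without the last). Rrm2 had 0 counts against 133, at least 52.5-fold higher in non-neuronal nuclei against a floor of 3 counts over the group, and its groups did not overlap.

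For Tyms, Rrm1 and Brca2 the populations overlapped and no difference passed the test. Tyms was at 43.6, 46.8, 48.4 and 42.8 in neuronal and 16.6, 56.3, 79.9 and 43.7 in non-neuronal libraries (−0.02, SE 0.43, edgeR adjusted p = 0.979), and its sign turned under several other settings. Rrm1 was at 19.1, 23.5, 21.2 and 17.5 against 20.1, 36.3, 28.0 and 27.8 (−0.38, SE 0.42, adjusted p = 0.568). Brca2, which loads the recombinase onto broken DNA, was at 23.5, 43.0, 36.7 and 43.6 against 22.2, 58.5, 40.4 and 21.7 (0.13, SE 0.43, adjusted p = 0.871). It was the only one of the 31 tested genes with a positive estimate, and its exons overlap an antisense gene. The neuronal libraries were closer to each other than the non-neuronal ones for all 3 genes. Brca1 (−2.70, SE 1.14, adjusted p = 0.103) did not pass. A p above the threshold does not show that the levels were equal.

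**Figure D3:**
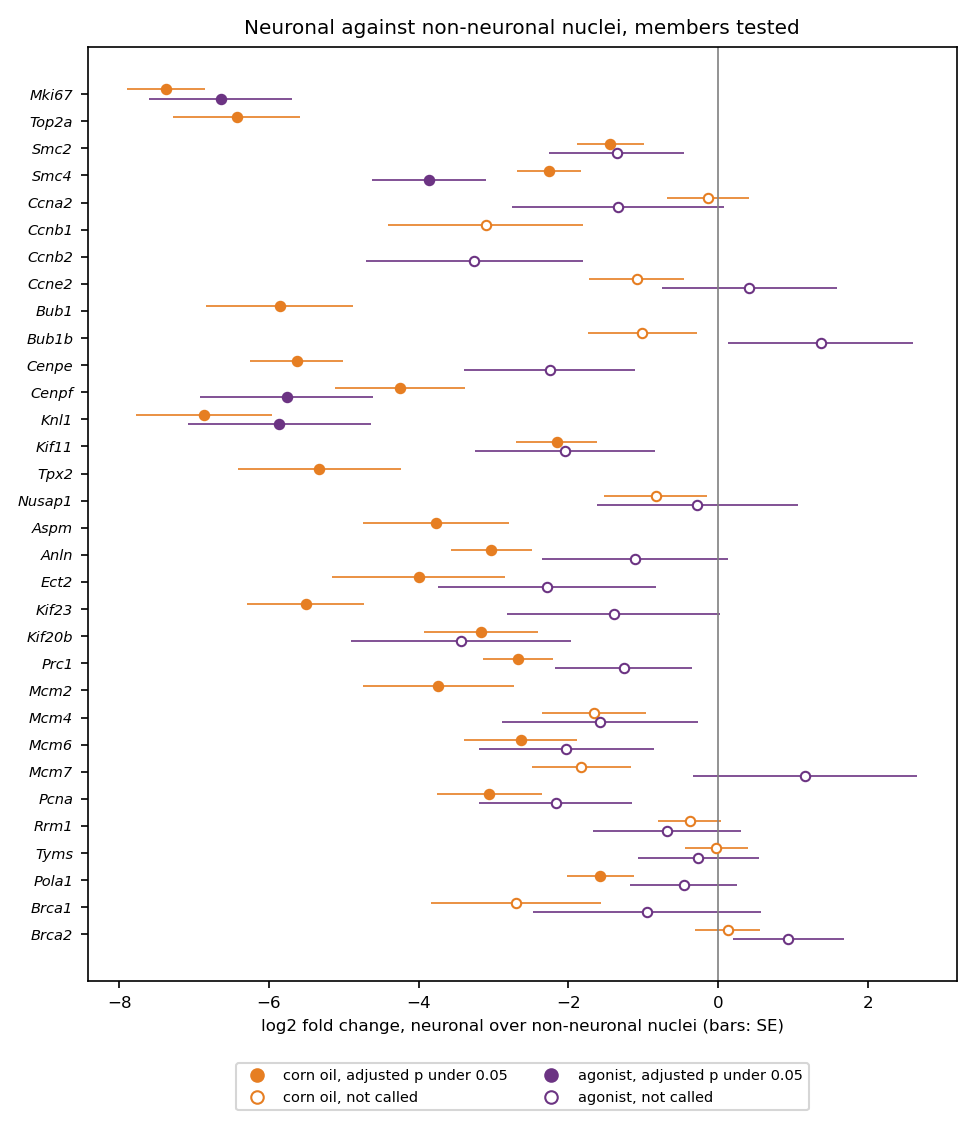
Log2 fold change of neuronal over non-neuronal nuclei for each gene tested after corn oil (orange) or agonist (purple); bars are standard errors and filled points have an edgeR adjusted p under 0.05. After corn oil 20 genes lie left of 0 and filled, from Mki67 at −7.37 to Smc2 at −1.44, and after agonist 4 do.

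Without non-neuronal corn oil library 4, the library with the lowest cell cycle sum, 29 genes were lower in neuronal nuclei and 40 were tested. That library is set apart by the levels of these same genes, so the higher count is no separate result. Over all genes, 3876 were called either way, and leaving out 1 library gave 3399 to 4735. Leaving out any other 1 library gave 18 to 24.

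The same comparison after agonist, in libraries that share none with the first, called 4 of 26 tested genes, all lower in neuronal nuclei, while 22 were not called and 18 were not tested. Over all 14065 genes tested, 6.97% were lower, 6.67% higher and 13.6% called either way. The median log2 fold change was −1.38 for the 26 genes and −0.15 for all genes. Here too a gene low in neurons passed the count filter only through the non-neuronal libraries. The counts and the median of the 26 therefore do not speak for all 44. All neuronal libraries lay below all non-neuronal ones for 10 of the 44 genes, tested or not, and above for 0. For the 26 tested these numbers were 4 and 0, against 9.96% and 11.7% of all genes tested. Negative estimates were found for 22 of the 26 genes (54.3% of all genes), and an unadjusted p under 0.05 for 6 (25.9%). The 4 genes, Mki67, Smc4, Cenpf and Knl1, were also lower after corn oil. The overlap is thus 4 of 4 genes of the agonist list and 4 of 20 of the corn oil list. Only 15 of those 20 were tested after agonist, and the others could not be called. Of the 25 genes tested in both, 21 had negative estimates in both. The share over all genes tested in both was not computed. The count filter acts the same way in both tests, so this count is not separate support.

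Mki67 was at 3.73, 4.53, 0 and 2.46 CPM in neuronal agonist libraries 1 to 4 and 147, 337, 74.2 and 505 in the non-neuronal ones (−6.65, SE 0.95, edgeR adjusted p = 0.000435). Smc4 was at 2.73, 11.9, 4.60 and 10.7 against 53.6, 165, 62.4 and 149 (−3.86, SE 0.76, adjusted p = 0.00367). Cenpf was at 0.497, 0.216, 0.512 and 1.64 against 14.1, 80.5, 22.4 and 40.4 (−5.76, SE 1.15, adjusted p = 0.00402). For these genes all non-neuronal libraries lay above all neuronal ones. Knl1 was at 0.249, 1.3, 0.512 and 1.09 against 8.19, 59.2, 10.1 and 111 (−5.86, SE 1.22, adjusted p = 0.00498), also without overlap. The non-neuronal agonist libraries spread widely, with libraries 2 and 4 high for each of the 4 genes.

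Several genes fell out of the agonist test through low counts. Top2a had 1 count in the 4 neuronal and 858 in the 4 non-neuronal libraries, at 19.7, 92.1, 0.258 and 136 CPM in the latter (1055-fold, 95% exact interval 189 to 41718, counting error only). Its groups are counted above as not overlapping, but 1 count in neuronal library 2 (0.216) stood against 1 count in non-neuronal library 3 (0.258), so the order rests on the library sizes. Kif4 had 0 against 199 counts, at least 81.6-fold higher in non-neuronal nuclei, Rrm2 had 0 against 190, at least 77.9-fold, and Cdk1 had 0 against 41, at least 16.8-fold, each against a floor of 3 counts over the group. Pcna was at 3.98, 15.5, 2.05 and 4.92 against 39.5, 27.1, 5.93 and 45.4 (−2.17, SE 1.02, edgeR adjusted p = 0.194) and overlapped. Ccnb1 had 9 counts against 126, of which non-neuronal library 4 held nearly all, at 27.8 against 0.745, 0.890 and 0 in libraries 1 to 3. Mcm2 ran the other way, with 0, 0, 11.3 and 0 in neuronal and 0, 0, 0 and 2.51 in non-neuronal libraries, and each group rested on 1 library. Positive estimates that did not pass were those of Bub1b (1.37), Mcm7 (1.17), Brca2 (0.94) and Ccne2 (0.42). Without the 2 non-neuronal agonist libraries over 30% mitochondrial counts, the number of genes called was again 4 (of 30 tested), and without non-neuronal agonist library 4 it was 4 of 27.

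The remaining cell cycle genes, 197 from a list of G1, replication, mitosis and ubiquitin ligase genes, were compared in the same way. After corn oil 146 were tested, 39 were lower in neuronal nuclei and 3 higher (median log2 fold change −0.94). Over all genes tested 13.5% were lower and 11.8% higher (median −0.11). The limit set by the count filter applies to this list as well, so these counts do not speak for all 197. The lower ones included the centromeric histone gene Cenpa (−6.29), the G1 kinase and cyclin genes Cdk6 (−5.17), Cdk2 (−4.97) and Ccnd2 (−3.51), the kinetochore gene Kntc1 (−4.94), the replication checkpoint gene Clspn (−3.93), the mitotic motor Kif15 (−2.68) and Bard1, the partner of BRCA1, with 0 against 134 counts. By role 11 of 20 tested spindle and cytokinesis genes, 4 of 10 G1 genes, 7 of 20 S-phase repair genes and 8 of 23 kinetochore and checkpoint genes were lower. So were 4 of 13 condensin and cohesin genes, 3 of 32 replication origin and fork genes and 2 of 14 genes of the Rb, E2F and DREAM list. None of the 2 tested genes of kinase inhibitors was called, and none of 12 of the anaphase-promoting complex and its relatives (0 higher, 0 lower). The 3 higher genes were Orc4, a subunit of the origin recognition complex (1.11), the centromere gene Cenpc1 (1.01) and Rb1, which restrains E2F (0.82).

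Ccnd2 was at 4.9, 6.33, 9.05 and 16 CPM in neuronal and 82.5, 141, 88.1 and 127 in non-neuronal corn oil libraries. Cdk6 was at 2.84, 2.53, 0 and 3.87 against 64.2, 101, 101 and 89.3, so unlike that of Mki67 its level was not the lowest in non-neuronal library 4. Ccnd1 (−1.87, edgeR adjusted p = 0.0876, or −2.14 and 0.0380 without non-neuronal library 4), Cdkn1a (−1.13, 0.408) and Cdkn1b (−0.49, 0.452) did not pass, and Foxm1, the activator of mitotic genes, had 9 against 249 counts and was not tested. After agonist 123 of the 197 were tested, 4 were lower in neurons (Cdk6 −6.41, Cdkn1a −4.67, Ccnd3 −4.64 and Ccnd2 −2.54) and 1, Cenpc1 (1.88), was higher, both smaller shares than the 6.97% and 6.67% over all genes tested. Without the libraries over 30% mitochondrial counts, Cdkn1a, Ccnd3, Ccnd2 and Cenpc1 did not pass (adjusted p from 0.0668 to 0.0861 by edgeR). Of these, the Ccnd2 call was lost when any 1 neuronal library or non-neuronal library 3 or 4 was left out (adjusted p from 0.0620 to 0.113 by edgeR) and the Ccnd3 call without neuronal library 4 (0.0575).

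Promoter letters were compared between the mitosis and the replication roles. RefSeq windows of 300 bases, 250 before and 50 after the start, were listed for 38 members and 27025 genes, and the first listed window of each gene was searched. The sets compared hold 18 and 12 of these 38 members, without the chromosome and cyclin, Cdk1 and E2f1 genes. CHR letters were in 15 of 18 windows (83.3%) of kinase, kinetochore, spindle and cytokinesis members, 2 of 12 (16.7%) of MCM, DNA synthesis and BRCA members and 19.4% of all windows. E2F letters were in 1 of 18 (5.56%) of the first set, 8 of 12 (66.7%) of the second and 6.93% of all windows. CCAAT, which can share bases with TTGGCGC, was in 66.7%, 83.3% and 37.9%. Of the 18 members with a window that were lower in neurons after corn oil, 14 held CHR and 4 held E2F letters. Of the 8 tested and not called, 2 held CHR and 5 held E2F letters. Of the 12 with a window that low counts kept untested, Mcm3, Mcm5 and Rrm2 among them, 6 held CHR and 3 held E2F letters. Exceptions ran both ways. Among the mitosis members, Cenpe, Birc5 and Nusap1 held no CHR letters, and Ect2 held E2F beside CHR letters. Among the replication members, Mcm2 and Mcm7 held CHR letters, and Mcm2, Pcna, Rrm2 and Tyms held no E2F letters. Both CHR and E2F letters were also in the windows of Mcm7, Mki67 and Cdk1, while that of Ccnb1 held E2F and no CHR letters. A match of letters is a description and not a bound site.

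**Figure D4:**
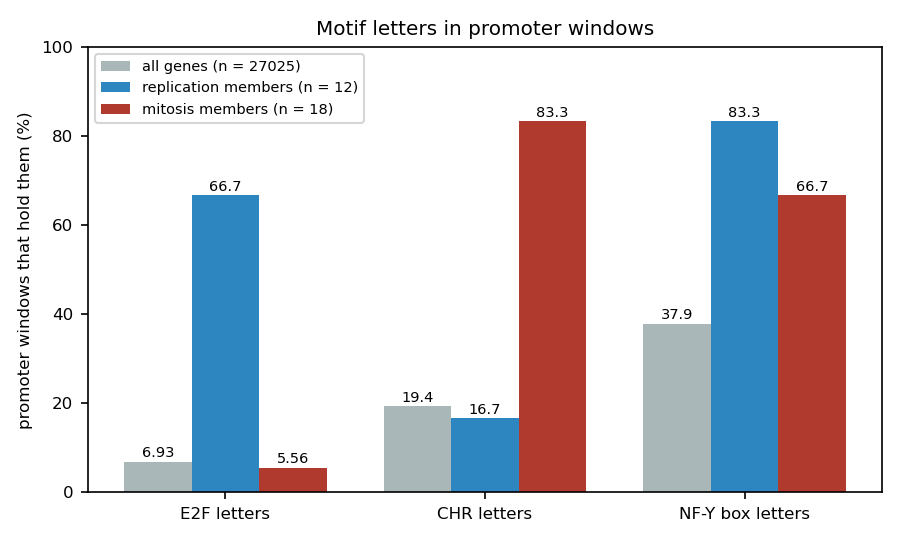
Share (%) of promoter windows of 300 bases that hold E2F, CHR or NF-Y (CCAAT) letters, for all 27025 genes, the 12 replication members and the 18 mitosis members with a window. CHR letters are in 83.3% of mitosis windows and E2F letters in 66.7% of replication windows, against 19.4% and 6.93% of all.

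A further pair of comparisons asked what the AhR agonist changed within each population. In neuronal nuclei 22 of the 44 genes were tested and 0 were called by edgeR or DESeq2, with 2 at an unadjusted p under 0.05. Over all 14182 genes 0.0% were called, and 5.01% had an unadjusted p under 0.05. The median log2 fold change of agonist over corn oil was 0.50 for the 22 genes, between 0.01 (without agonist library 4) and 0.47 with 1 library left out, and 0.08 for all genes tested. Estimates were negative for 9 of the 22 genes (44.7% of all genes). Agonist libraries lay all below the corn oil libraries for 2 of the 44 genes, Top2a and Ccna2, and all above for 1, Pola1. Top2a was not tested and rests on 1 count (0.216) against 1 count (0.253). For the 22 tested these numbers were 1 and 1, against 2.16% and 1.47% of all genes tested. The 2 genes at an unadjusted p under 0.05, chosen after their values were seen, were Smc4 (−1.45, SE 0.64, edgeR adjusted p = 0.903) and Cenpe (1.99, SE 0.90, adjusted p = 0.903). Mki67 was −0.43 (SE 1.00) and Pcna 1.12 (SE 0.87), with overlapping groups for both. Tyms, the gene with the highest neuronal level per kb, was at 61.6, 22.7, 22 and 38 after agonist, a wider spread than the 42.8 to 48.4 after corn oil (−0.33, SE 0.40, adjusted p = 0.955). Pola1 was at 31.6, 43.8, 44.2 and 54.4 after agonist, all above the 21.2 to 30.5 after corn oil, and its log2 fold change of 0.70 (SE 0.36) did not pass (adjusted p = 0.903).

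In non-neuronal nuclei 40 of the 44 genes were tested and 0 were called by edgeR or DESeq2, with 6 at an unadjusted p under 0.05 (4.82% of all genes), while 0.0135% of all 14846 genes were called, all higher. The estimates of 32 were negative (44.3% of all genes) and 8 positive. The agonist libraries lay all below the corn oil libraries for 4 of the 44 genes, Aurka, Bub1, Anln and Mcm2, and all above for 0. For the 40 tested these numbers were 3 and 0, against 2.17% and 1.25% of all genes tested. The 40 genes had a median log2 fold change of −0.75 (0.13 over all genes), which was −1.66 without agonist library 4 and −0.46 without corn oil library 2. Mki67 was at 638, 945, 818 and 188 CPM after corn oil and 147, 337, 74.2 and 505 after agonist (−1.23, SE 0.56, edgeR adjusted p = 0.954). Top2a was at 147, 215, 128 and 22.5 against 19.7, 92.1, 0.258 and 136 (−0.99, SE 1.1, adjusted p = 0.981). The groups overlapped for both genes. For Mki67 corn oil library 4 alone lay below agonist libraries 2 and 4, and for Top2a corn oil library 4 was low and agonist library 4 high. The sums of crypt, epithelial, lymphocyte and smooth muscle genes given above also differ between these libraries, and the part of any of these cells was not tested.

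The members with the largest non-neuronal estimates were chosen after their values were seen. Mcm2 was at 0, 0, 0 and 2.51 after agonist and 6.42, 4.81, 19.8 and 14.3 after corn oil, without overlap (−3.94, SE 1.59, edgeR adjusted p = 0.954). Bub1 was at 6.33, 0.890, 3.61 and 2.28 against 23.6, 63.7, 21.5 and 7.15, also without overlap (−3.11, SE 1.05, adjusted p = 0.954). Ccnb2 had the highest positive estimate, at 57, 32, 0 and 9.13 after agonist against 0.583, 1.85, 3.24 and 0.511 (4.02, SE 1.47, adjusted p = 0.954), with overlapping groups. Kif23 (−2.24) and Anln (−1.50) were the remaining genes at an unadjusted p under 0.05 beside Mki67. The estimate of Ccnb2 differed in sign from that of Ccnb1, which was at 0.745, 0.890, 0 and 27.8 against 23.0, 12.6, 13.3 and 18.4 (−1.11, SE 1.38, adjusted p = 0.983). Pcna (0.17, SE 0.79) and Cdk1 (−1.97, SE 1.23) did not pass either. By role, all 13 tested genes of the kinetochore and spindle list (7) and the cytokinesis list (6) had negative estimates, with medians of −1.15 and −1.46, and none passed (0 called). Estimates were also negative for 5 of 5 kinase and checkpoint genes and 2 of 2 BRCA genes. They were for 2 of 4 chromosome genes, 4 of 6 cyclin, Cdk1 and E2f1 genes, 3 of 5 MCM genes (median −0.04) and 3 of 5 DNA synthesis genes (−0.18). Over all genes tested 44.3% were negative.

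The gene of a cell cycle inhibitor stood out beside the members. Cdkn1a encodes p21, which blocks cyclin-dependent kinases and can halt the cycle. It was at 5.25, 4.44, 17.4 and 9.19 CPM in the non-neuronal corn oil libraries and 63.3, 130, 65.7 and 57.5 in the agonist libraries, without overlap. Its log2 fold change of 3.18 (SE 0.69) had an adjusted p of 0.593 by edgeR and 0.00143 by DESeq2. Without the filter on low counts edgeR gave 3.14 (adjusted p = 0.0366), so the call depended on the tool and on the filter. In neuronal nuclei it was at 1.55, 0.506, 7.39 and 5.93 after corn oil and 0, 7.34, 0.256 and 4.65 after agonist (−0.33, SE 1.24). The difference between these responses, neuronal minus non-neuronal, was −3.44 (SE 1.37, edgeR adjusted p = 0.554). The high level was found in all 4 agonist libraries, also in library 4, where Mki67 was at 505. Cdkn1c, encoding p57, had 0, 0, 46.1 and 11.4 after agonist and 1 count in the 4 corn oil libraries, and was not tested. Cdkn1b, encoding p27, did not pass (1.07, SE 0.62, edgeR adjusted p = 0.954), and Ccnd2 was at 46.5, 52.0, 58.5 and 55.2 against 82.5, 141, 88.1 and 127, without overlap (−1.01, SE 0.45, edgeR adjusted p = 0.954). Of the 197 further cell cycle genes 161 were tested here, and edgeR called 0 (8 at an unadjusted p under 0.05) and DESeq2 1, Cdkn1a.

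**Figure D5:**
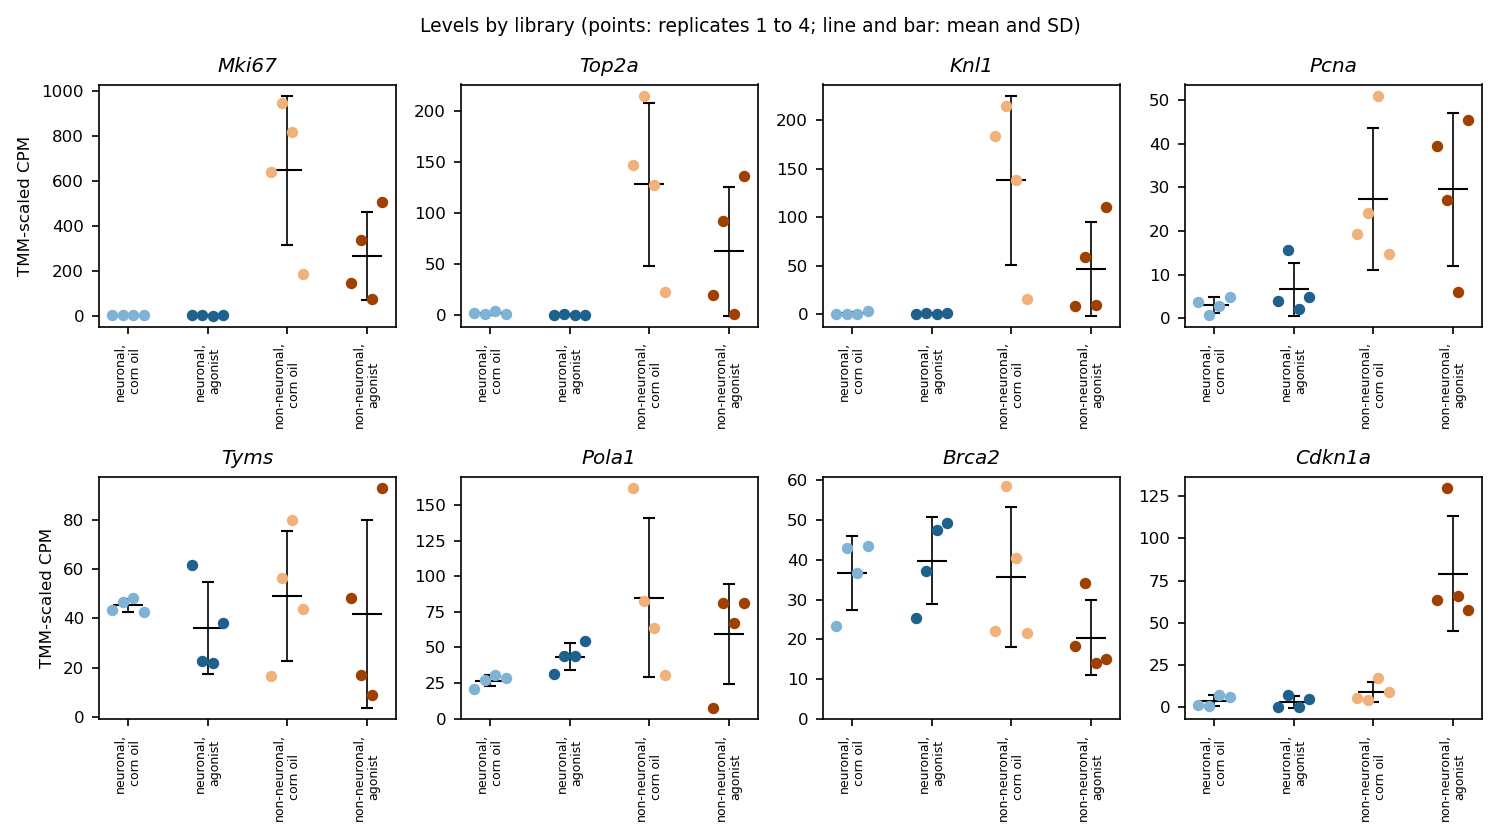
TMM-scaled CPM of 7 members and the inhibitor gene Cdkn1a in each library (points, replicates 1 to 4), with group means (line) and SD (bar). Mki67, Top2a and Knl1 are near 0 in the 8 neuronal libraries, Tyms and Brca2 overlap between the populations, and Cdkn1a is at 57.5 to 130 in the 4 non-neuronal agonist libraries.

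The difference of the agonist response between the populations was tested for 41 members in 1 fit over all 16 libraries, and 0 were called by edgeR or DESeq2 (4 at an unadjusted p under 0.05, 7.99% over all genes), as were 0.0% of all 18566 genes by edgeR. The median difference, neuronal minus non-neuronal response, was 0.59 for the 41 members (1.38 without non-neuronal agonist library 4), and 16 were below 0 (48.8% of all genes). That of Mki67 was 0.86 (SE 0.96, edgeR adjusted p = 0.892). Without the filter on low counts 1 member, Kif23, was called.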

How the data were processed

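Nuclear RNA of 16 libraries was sequenced as 75 base single reads after amplification with the Ovation RNA-Seq kit, per the labels' protocols. The submitters' processing notes name STAR 2.5.2, RSEM 1.3.0, DESeq2 1.10.1 and the build GRCm38. The deposited table holds the expected counts per gene that the authors obtained with RSEM, and 86.4% of the members' values are whole numbers. For strandedness and gene annotation version, nothing was found in labels, headers or notes. The header of the table names a wild type and knockout project, while the library names give agonist and control as the labels do, and the libraries were grouped by these.

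Counts were rounded, genes were filtered with edgeR's filterByExpr (minimum count 10, minimum total 15) within each comparison, scaled by TMM and tested with the quasi-likelihood test of edgeR 4.0.16 in R 4.3.3, on the 2 groups compared, with Benjamini-Hochberg adjustment over all genes tested. The difference of responses was fitted over all 4 groups. Levels of single genes in CPM were computed on the TMM-scaled library size and sums over gene lists on the plain library size, unless stated. Levels per kb were divided by the GENCODE M21 exon length. Intervals cover counting error only. The fits were tested on simulated data. Alternatives were no TMM, DESeq2 1.42.0, no filter, 1 fit over all groups, a replicate block, each library left out, mitochondrial genes taken out and the libraries over 30% mitochondrial counts left out.

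The members and the other gene lists were chosen with earlier results of these data known. Libraries are given in full for Mki67, Top2a, Cdk1, Ccnb1, Mcm2, Pcna, up to 12 called members with the smallest adjusted p and the 3 with the highest neuronal level. Among other cell cycle genes, Cdkn1a, Cdkn1b, Cdkn1c, Ccnd1, Ccnd2, Foxm1 and up to 8 called genes per comparison were named. Genes described beyond these, to account for every member and for all 3 higher genes, were chosen after their values were seen. No 2 libraries of a group agreed within sampling noise.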

Additional observations from a re-analysis of the deposited data

Results flagged for a closer look

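Of 72 gene and group combinations checked for a single library far from the other 3, 6 stood apart, and chance alone sets about 1 in 20 groups apart where values vary freely. That rate does not apply where the other 3 libraries are at exactly 0, as in 4 of the 6, since any value above 0 then stands apart. In neuronal nuclei these were Mcm2 at 11.3 CPM in agonist library 3, Cdk1 at 1.55 in corn oil library 1 and Ccnb1 at 7.15 in corn oil library 3, each with the other 3 libraries at 0. In non-neuronal nuclei agonist library 4 was high for Ccnb1 (27.8), Tpx2 (24) and Mcm2 (2.51, the others at 0), and it also had the highest summed level of the 44 genes in its group.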

How the results depend on the processing

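After corn oil the number of members called stayed between 16 and 29 under every alternative run, all lower in neuronal nuclei, and was 17 with a replicate block. After agonist it was 4 to 6 except for 7 without the filter and 13 with all 4 groups in 1 fit, where neuronal and non-neuronal libraries share 1 estimate of the spread, and leaving out 1 library gave 4 to 6. For the 197 further cell cycle genes after agonist, 5 were called, against 13 with DESeq2, 14 without the filter, 37 with all groups in 1 fit and 5 to 10 leaving out 1 library. For all genes after agonist, 1918 were called, against 2953, 3324 and 4590 under the same alternatives. For the agonist response in neuronal nuclei the counts called rose from 0 to 1 without the filter (197 further genes), and for all genes to 9 with DESeq2 and 152 without the filter. In non-neuronal nuclei 1 further gene, Cdkn1a, was called with DESeq2 and 1, again Cdkn1a, without the filter. Of all genes 2 were called, against 0 without TMM, 35 with DESeq2, 88 without the filter, 11 with all groups in 1 fit, 1 without the libraries over 30% mitochondrial counts and 0 to 2 leaving out 1 library. For the difference of responses 1 member was called without the filter, 1 further gene with DESeq2 and 1 without the filter, and of all genes 103 with DESeq2, 110 without the filter, 7 without the libraries over 30% mitochondrial counts and 0 to 9 leaving out 1 library (9 without non-neuronal agonist library 3). The cause of these differences was not tested. With all 4 groups in 1 fit the calls of Smc2, Kif11, Ect2, Kif20b, Mcm2, Mcm6 and Pola1 after corn oil were lost (adjusted p from 0.0550 to 0.184), and with the block those of Smc2, Ect2, Mcm6 and Pola1 (0.0542 to 0.0692), while that of Ccnb1 was gained (0.0208). Without TMM, Smc2 (0.0730) and Pola1 (0.0510) were lost. The genes whose sign turned did not pass in that comparison. After corn oil Tyms was at 0.28 without TMM, 0.060 without the filter, 0.16 with the block and up to 0.35 leaving out 1 library (lowest −0.30). Brca2 ran from −0.032 to 0.45 leaving out 1 library. After agonist Tyms was at 0.13 without TMM, 0.18 with the block and from −0.59 to 0.50 leaving out 1 library, and Pola1 was at 0.041 without TMM. For the agonist response Cdkn1a in neuronal nuclei ran from −1.24 to 0.20 leaving out 1 library, and Pcna in non-neuronal nuclei from −0.12 to 0.65, with −0.14 without TMM and −0.073 without the libraries over 30% mitochondrial counts. Labels do not say that a replicate number marks a shared mouse or day, and same-numbered libraries deviated together with correlations from −0.10 to 0.18, so the block is only an alternative and no pairing was used. Low counts kept 13 members untested after corn oil and 18 after agonist.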
